A study of Komagataella pastoris with 6 samples.

Results

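The genes described here encode the mitochondrial carriers and the protein import machinery of the yeast *Komagataella phaffii*, deposited under the organism name *Komagataella pastoris*. They were taken from the count table by a search of its protein names and orthology descriptions for carriers of solute carrier family 25, mitochondrial import proteins and translocases of the inner and outer membrane. The search matched 50 of 5427 genes, of which a succinate/fumarate transporter and an iron transporter were left out by the rule, so that 48 genes remained, 27 carriers and 21 import genes. All 48 had enough reads to be tested. Transcripts were counted by RNA-seq in 6 libraries, 2 for each of 3 groups, after 24 h of culture. *X33* is the histidine prototroph (*HIS4*) and *GS115* the histidine auxotroph (*his4*). Libraries C and D came from *X33* in YPA, which is yeast extract and peptone with acetate as the carbon source (*X33*-YPA). Libraries E and F came from *GS115* in YPA with 650 µM histidine added (*GS115*-YPAH5x), and libraries A and B from *GS115* in YPA alone (*GS115*-YPA). All 6 libraries therefore came from cells in rich medium with acetate, and *X33*-YPA differs from *GS115*-YPA in strain while *GS115*-YPAH5x differs from it in medium. The study describes the strains as differing only at the *HIS4* locus.

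The libraries held 32194047 to 43447246 counted reads. Values below are counts per 1000000 reads (CPM) after scaling of the libraries, so they are shares of a library's counted RNA, and fewer cells with a transcript and less transcript per cell cannot be told apart. CPM is not corrected for gene length, so levels are compared between groups and not between genes. Replicate libraries differed by more than counting noise in each group, with a chi-square per degree of freedom of 69.7 in *X33*-YPA, 40.9 in *GS115*-YPAH5x and 141 in *GS115*-YPA. Nothing in the labels says whether the 2 libraries of a group came from separate cultures, and p-values then measure the spread between these libraries, which may be technical. Transcripts of *HIS4* (BQ9382_C1-4895) were counted in every library, at 187 and 220 CPM in *X33*-YPA, 207 and 181 in *GS115*-YPAH5x and 365 and 501 in *GS115*-YPA. Their level does not check the strain labels, because the *his4* transcript of *GS115* is counted as well.

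Most mitochondrial proteins are encoded in the nucleus and made in the cytosol. They enter through the TOM complex of the outer membrane, after which the TIM23 complex and its motor draw proteins with a presequence into the matrix, while the small TIM chaperones and the TIM22 complex place multispanning proteins in the inner membrane. The metabolite carriers are themselves clients of the second route, and once in place they exchange nucleotides, phosphate, carboxylates, amino acids and cofactors between matrix and cytosol. Gene roles given below are those known from *Saccharomyces cerevisiae* or, for the solute carrier names, from mammals. A gene is said to have risen or fallen where the adjusted p of edgeR's quasi-likelihood test, taken over all 5426 genes tested, was under 0.05.

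In *X33*-YPA against *GS115*-YPA, 18 of the 48 genes rose (37.5%) and 11 fell (22.9%), against 33.4% and 32.8% of all genes tested. The median log2 fold change (below also log2 change) was 0.14, against 0.01 over all genes. In *GS115*-YPAH5x against *GS115*-YPA, 9 rose (18.8%) and 14 fell (29.2%), where 30.7% and 29.1% of all genes did so, and the median was -0.15, against 0.00 over all genes. The count of 18 was 11 when library D was left out, the count of 9 was 4 without library F, and the count of 14 was 8 without library E. A log2 fold change of at least 2 in either direction with an adjusted p under 0.05 was met by 1 member, *TPC1*, in *X33*-YPA, and by none in *GS115*-YPAH5x, where no member had a log2 fold change of that size at any p, while 6.8% and 5.33% of all genes passed in these comparisons. Both comparisons share the *GS115*-YPA libraries, so their values are given side by side.

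**Figure D1:**
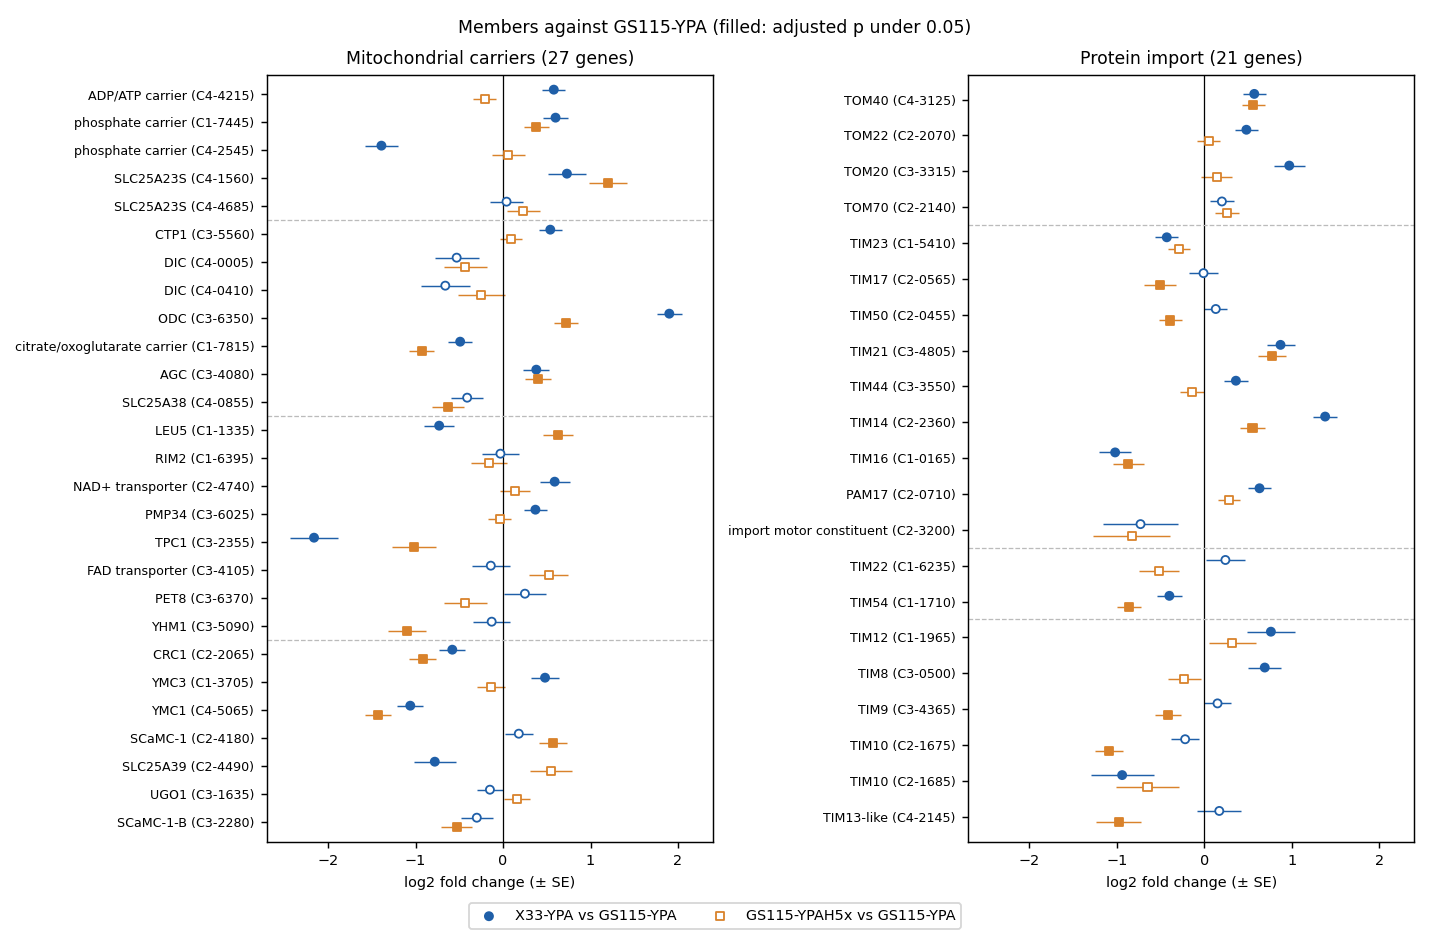
Log2 fold change (x axis, bars are the SE) of the 27 carriers (left) and 21 import genes (right), for *X33*-YPA (circles) and *GS115*-YPAH5x (squares), each against *GS115*-YPA with 2 libraries a group. Filled symbols have an adjusted p under 0.05 and dashed lines separate the roles; the values run from -2.16 (*TPC1*) to 1.90 (*ODC*), both in *X33*-YPA.

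The carriers of energy metabolism held most of the reads of the group. The ADP/ATP carrier (BQ9382_C4-4215), which exports ATP from the matrix in exchange for ADP, had 2700 and 2735 CPM in *X33*-YPA, 1597 and 1556 in *GS115*-YPAH5x and 1780 and 1857 in *GS115*-YPA. It was highest in both *X33*-YPA libraries, and no group overlapped another. *X33*-YPA stood above *GS115*-YPA (log2 fold change 0.58, SE 0.13, adjusted p = 0.00327), while the value for *GS115*-YPAH5x was -0.21 (SE 0.13, adjusted p = 0.202). With upper-quartile scaling the value for *GS115*-YPAH5x passed (-0.34, adjusted p = 0.0416). The ADP/ATP carrier alone took 51.8% and 51.3% of all reads on the 48 genes in *X33*-YPA, 40.8% and 39.7% in *GS115*-YPAH5x, and 44.6% in each *GS115*-YPA library. Summed over all 48 genes the level was 5209 and 5333 CPM in *X33*-YPA, 3919 and 3922 in *GS115*-YPAH5x and 3992 and 4163 in *GS115*-YPA. Without the ADP/ATP carrier the sums were 2508 and 2598 CPM, 2322 and 2366 CPM, and 2212 and 2306 CPM in the same order of groups. This gene therefore made up most of the difference between *X33*-YPA and the *GS115* groups. Between the *GS115* groups the order turned round, with *GS115*-YPAH5x above *GS115*-YPA once the gene was left out.

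The phosphate carrier, which brings in the phosphate for ATP synthesis, is annotated on a pair of genes, and they went different ways in *X33*-YPA. BQ9382_C1-7445 had 574 and 603 CPM in *X33*-YPA, 500 and 510 in *GS115*-YPAH5x and 369 and 408 in *GS115*-YPA, with no overlap of groups. It rose in *X33*-YPA (log2 change 0.60, SE 0.14, adjusted p = 0.00311) and, less firmly, in *GS115*-YPAH5x (0.38, SE 0.14, adjusted p = 0.0345). The second call was lost when library A, C, D, E or F was left out (log2 fold change 0.27, 0.34, 0.34, 0.39 and 0.35, adjusted p between 0.0805 and 0.221), and with upper-quartile scaling (0.25, adjusted p = 0.127). BQ9382_C4-2545 had 68.0 and 58.9 CPM in *X33*-YPA, 172 and 175 in *GS115*-YPAH5x and 133 and 200 in *GS115*-YPA. Both *X33*-YPA libraries were below all 4 *GS115* libraries, and the *GS115* groups overlapped. This copy fell in *X33*-YPA (log2 change -1.39, SE 0.19, adjusted p = 0.00015) and showed no call in *GS115*-YPAH5x (0.06, SE 0.19, adjusted p = 0.79), although it passed there without library B (0.39, adjusted p = 0.0395). Reads that fit both copies may have been split between them by the counting.

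A second annotated pair is described as SLC25A23S (calcium-regulated carriers of ATP-Mg and phosphate in mammals). BQ9382_C4-1560 had 23.9 and 21.7 CPM in *X33*-YPA, 31 and 32 in *GS115*-YPAH5x and 10.3 and 17.2 in *GS115*-YPA. It was the carrier with the largest rise in *GS115*-YPAH5x (log2 fold change 1.2, SE 0.22, adjusted p = 0.00103) and also rose in *X33*-YPA (0.73, SE 0.22, adjusted p = 0.013), a call lost without library C (0.62, adjusted p = 0.0818). The value in *X33*-YPA was 0.37 (adjusted p = 0.0483) without library A and 1.15 (adjusted p = 0.000191) without library B, so its size rested on the *GS115*-YPA libraries. The value in *GS115*-YPAH5x ran from 0.83 to 1.62 over the 14 alternatives, so its size was not firm either, although the call was not lost. BQ9382_C4-4685 lay between 18.0 and 27.3 CPM in all 6 libraries and passed in neither comparison (0.04 and 0.23, adjusted p = 0.863 and 0.326). The difference between the 2 copies was not tested.

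**Figure D2:**
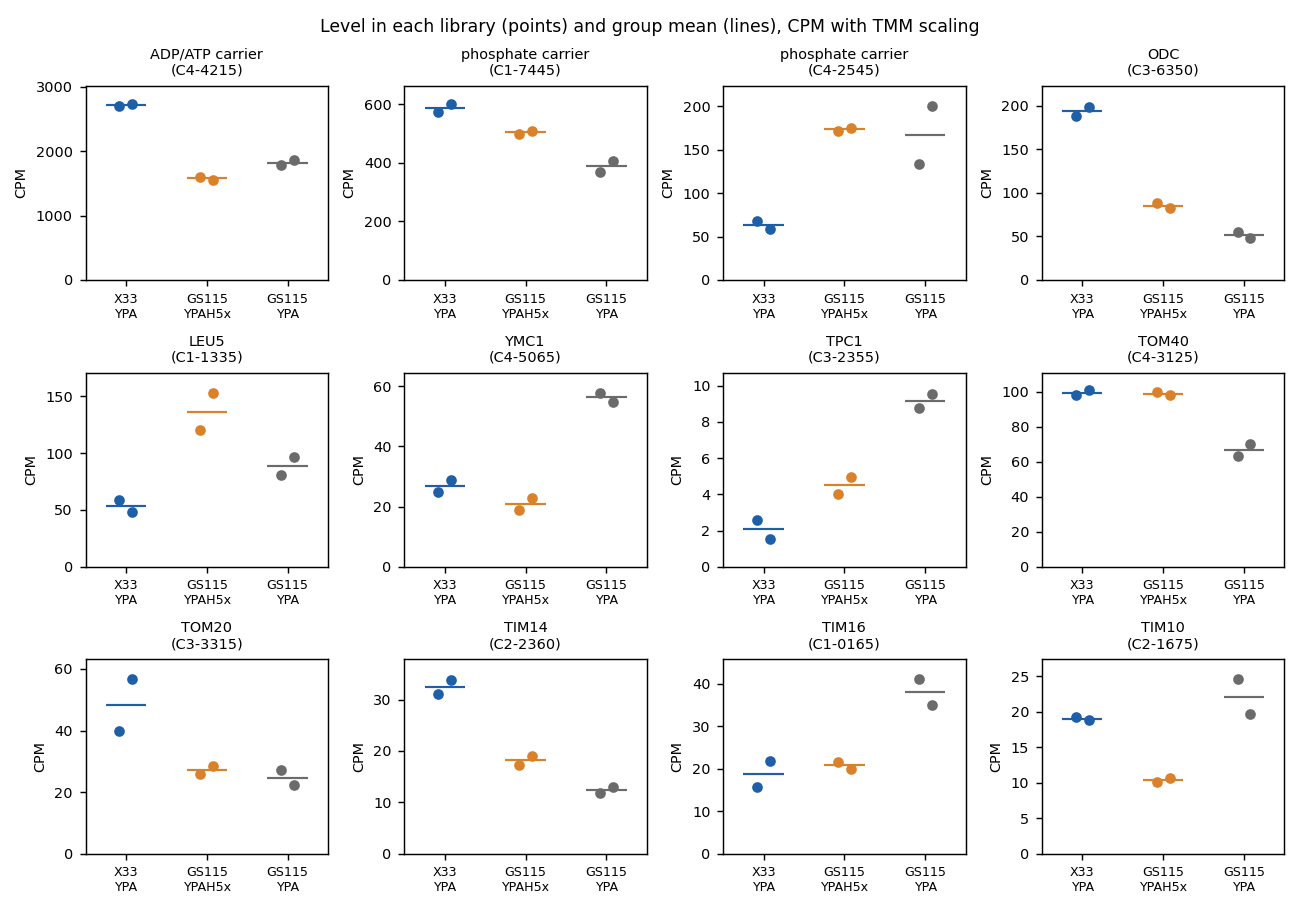
Level in CPM (y axis, from 0) of 12 genes in each library (points) and as the group mean (lines), with *X33*-YPA left, *GS115*-YPAH5x in the middle and *GS115*-YPA right, 2 libraries a group. The phosphate carrier pair runs in different directions in *X33*-YPA, and *LEU5* lies on different sides of *GS115*-YPA in the other groups.

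Of the 7 carriers of carboxylates and amino acids, 3 rose (42.9%) and 1 fell (14.3%) in *X33*-YPA, against 33.4% and 32.8% of all genes. In *GS115*-YPAH5x 2 rose and 2 fell (28.6% each), near the 30.7% and 29.1% of all genes. *ODC* (BQ9382_C3-6350), annotated as the 2-oxodicarboxylate carrier, which in *S. cerevisiae* moves 2-oxoadipate and 2-oxoglutarate, had the largest rise of the 48 genes. It had 188 and 199 CPM in *X33*-YPA, 88.4 and 82.4 in *GS115*-YPAH5x and 55.5 and 47.9 in *GS115*-YPA. The 3 groups lay apart, in that order. It rose 3.74-fold in *X33*-YPA (log2 change 1.90, SE 0.14, adjusted p = 3.04e-06) and 1.65-fold in *GS115*-YPAH5x (0.72, SE 0.14, adjusted p = 0.00138). BQ9382_C1-7815 is described only as SCaMC-1, a calcium-binding mitochondrial carrier, with no orthology description. The name citrate/oxoglutarate carrier used here, and the gene's place in this role, do not come from that description. BQ9382_C2-4180, with the same description, is counted among other carriers below. BQ9382_C1-7815 is the 1 gene of the role that fell in *X33*-YPA and 1 of the 2 that fell in *GS115*-YPAH5x. It had 140 and 139 CPM in *X33*-YPA, 105 and 100 in *GS115*-YPAH5x and 182 and 210 in *GS115*-YPA. It fell in both (log2 fold change -0.49, adjusted p = 0.00982 and -0.93, adjusted p = 0.000284; SE 0.14 each), with the lowest values in *GS115*-YPAH5x. The citrate transporter *CTP1* (BQ9382_C3-5560) rose in *X33*-YPA (130 and 132 CPM, against 83.9 and 95.7 CPM in *GS115*-YPA; log2 fold change 0.54, adjusted p = 0.00456), and its value in *GS115*-YPAH5x was 0.09 (adjusted p = 0.561).

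The aspartate/glutamate carrier *AGC* (BQ9382_C3-4080), a part of the malate-aspartate shuttle, rose by nearly the same amount in *X33*-YPA (log2 change 0.38, adjusted p = 0.0432) and *GS115*-YPAH5x (0.40, adjusted p = 0.0385). Both calls were weak. In *X33*-YPA the call was lost without library A, B, D, E or F (0.33, 0.39, 0.15, 0.38 and 0.36, adjusted p between 0.063 and 0.451), and in *GS115*-YPAH5x without library A, B, E or F (0.35, 0.41, 0.37 and 0.42, adjusted p between 0.0549 and 0.184). SLC25A38 (BQ9382_C4-0855), which in *S. cerevisiae* carries glycine for haem synthesis, fell in *GS115*-YPAH5x (6.27 and 6.90 CPM, against 11 and 9.35 CPM in *GS115*-YPA; log2 fold change -0.63, adjusted p = 0.0126), a call lost without library E (-0.56, adjusted p = 0.106). The 2 dicarboxylate carrier genes *DIC* (BQ9382_C4-0005 and BQ9382_C4-0410) lay between 5.29 and 13.6 CPM and passed in neither comparison, although both passed in *X33*-YPA without library D (-1.08 and -1.27, adjusted p = 0.00349 and 0.00232). With DESeq2 the second also passed there (-0.67, adjusted p = 0.0296). The first passed in *GS115*-YPAH5x without library C or D (-0.47 in each case, adjusted p = 0.038 and 0.0416) and with only the 4 libraries compared (-0.45, adjusted p = 0.0446).

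Carriers of cofactors and nucleotides held the gene with the largest fall and the gene called in different directions. *TPC1* (BQ9382_C3-2355), the carrier of thiamine pyrophosphate, the cofactor of matrix oxo-acid dehydrogenases, was at low levels, with 2.60 and 1.53 CPM in *X33*-YPA, 4.04 and 4.97 in *GS115*-YPAH5x and 8.75 and 9.53 in *GS115*-YPA. The groups lay apart, with *X33*-YPA lowest. It fell in *X33*-YPA (log2 change -2.16, SE 0.27, adjusted p = 7.48e-05) and in *GS115*-YPAH5x (-1.02, SE 0.25, adjusted p = 0.00639), where the call was lost without library E (-0.88, adjusted p = 0.0526). Without library D the fall in *X33*-YPA still passed the test but stayed short of a log2 fold change of 2 in size (-1.86), so that no member then met the fold threshold.

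*LEU5* (BQ9382_C1-1335), needed for the accumulation of coenzyme A in the matrix, had 58.8 and 48.1 CPM in *X33*-YPA, 120 and 153 in *GS115*-YPAH5x and 80.8 and 96.2 in *GS115*-YPA. Both *X33*-YPA libraries were the lowest and both *GS115*-YPAH5x libraries the highest. It fell in *X33*-YPA (log2 change -0.73, SE 0.17, adjusted p = 0.00411) and rose in *GS115*-YPAH5x (0.63, SE 0.17, adjusted p = 0.0104), a call lost without library A (0.47, adjusted p = 0.0594) or F (0.42, adjusted p = 0.144). *YHM1* (BQ9382_C3-5090), the GTP/GDP carrier of *S. cerevisiae*, had 9.65 and 14.3 CPM in *X33*-YPA, 6.04 and 6.23 in *GS115*-YPAH5x and 14.6 and 11.7 in *GS115*-YPA. It fell in *GS115*-YPAH5x (log2 fold change -1.10, SE 0.22, adjusted p = 0.00188), and its value in *X33*-YPA, whose libraries overlapped those of *GS115*-YPA, was -0.13 (adjusted p = 0.597).

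Of the other cofactor carriers, the NAD+ transporter (BQ9382_C2-4740) rose in *X33*-YPA (log2 change 0.59, adjusted p = 0.012), a call lost without library B (0.45, adjusted p = 0.0526) or C (0.42, adjusted p = 0.113). BQ9382_C3-6025, described both as an NAD+ transporter and as the peroxisomal carrier PMP34, rose in *X33*-YPA (0.37, adjusted p = 0.0335), a call lost without library B, C, D, E or F (0.29, 0.29, 0.37, 0.37 and 0.35, adjusted p between 0.068 and 0.19). The pyrimidine nucleotide carrier *RIM2*, the FAD transporter and *PET8*, the carrier of S-adenosylmethionine, were at 3.04 to 8.81 CPM and passed in neither comparison, but *PET8* passed in *GS115*-YPAH5x without library A (-0.72, adjusted p = 0.0263) and the FAD transporter without library B (0.67, adjusted p = 0.0458).

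Of the remaining 7 carriers 3 fell (42.9%) and 1 rose (14.3%) in each comparison, against 32.8% lower and 33.4% higher of all genes in *X33*-YPA and 29.1% and 30.7% in *GS115*-YPAH5x. In a role of this size 1 gene is 14.3%. *CRC1* (BQ9382_C2-2065), which carries acylcarnitine and thereby acetyl units into the matrix, had 98.7 and 113 CPM in *X33*-YPA, 89.5 and 78.1 in *GS115*-YPAH5x and 172 and 144 in *GS115*-YPA. It fell in *X33*-YPA (log2 change -0.58, SE 0.15, adjusted p = 0.00696) and in *GS115*-YPAH5x (-0.92, SE 0.15, adjusted p = 0.0006). Its neighbour in the table is *TOM22*, and reads shared by overlapping genes could not be separated here, since the strand setting is not given in the sources used here. *YMC1* (BQ9382_C4-5065), an inner membrane transporter of the same orthology group, had 24.9 and 28.9 CPM in *X33*-YPA, 19.0 and 22.8 in *GS115*-YPAH5x and 57.8 and 54.9 in *GS115*-YPA, so that both *GS115*-YPA libraries stood well above the rest. It showed the largest fall of any member in *GS115*-YPAH5x (log2 fold change -1.43, SE 0.15, adjusted p = 3.16e-05), and fell in *X33*-YPA as well (-1.06, SE 0.15, adjusted p = 0.000141). The falls of *CRC1* and *YMC1* passed in each of the 14 alternatives tried.

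*YMC3* (BQ9382_C1-3705) went the other way in *X33*-YPA (log2 change 0.48, adjusted p = 0.0231), a call lost without library B (0.43, adjusted p = 0.0639) or D (0.31, adjusted p = 0.198). SLC25A39 (BQ9382_C2-4490), a transporter of glutathione in mammals, had 13.5 and 7.45 CPM in *X33*-YPA, 25.3 and 27.4 in *GS115*-YPAH5x and 19.0 and 17.0 in *GS115*-YPA. It fell in *X33*-YPA (-0.78, SE 0.24, adjusted p = 0.0162), but not without library D (-0.45, adjusted p = 0.0712), while without library C it was -1.31 (adjusted p = 0.000765). Its value in *GS115*-YPAH5x was 0.55 (adjusted p = 0.0685). There it passed without library C or D (0.51 each), with DESeq2 (0.55, adjusted p = 0.0436) and with only the 4 libraries compared (0.54, adjusted p = 0.0128). The fall in *X33*-YPA also passed with DESeq2, with only the 4 libraries compared and without library C. In these fits the gene was called in different directions. The SCaMC-type carriers BQ9382_C2-4180 and BQ9382_C3-2280 passed in *GS115*-YPAH5x, with log2 fold changes of 0.57 (adjusted p = 0.0121) and -0.53 (adjusted p = 0.027). The first call was lost without library F (0.45, adjusted p = 0.106), and the second without library A, E or F (-0.40, -0.65 and -0.43, adjusted p between 0.0539 and 0.159). *UGO1* (BQ9382_C3-1635), a carrier-like protein of mitochondrial fusion, lay between 34.2 and 45.1 CPM and passed in neither comparison, but fell in *X33*-YPA without library A (-0.38, adjusted p = 0.0212) and rose in *GS115*-YPAH5x without library B (0.37, adjusted p = 0.0298).

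Of the 4 measured genes of the TOM complex, 3 rose in *X33*-YPA (75%) and 1 in *GS115*-YPAH5x (25%), and none fell in either. Over all genes tested, the shares called higher were 33.4% for *X33*-YPA and 30.7% for *GS115*-YPAH5x. The shares called lower were 32.8% and 29.1%. With 4 genes, a single call makes up 25% of the role. *TOM40* (BQ9382_C4-3125), the channel of the complex, had 98.2 and 101 CPM in *X33*-YPA, 99.8 and 98.1 in *GS115*-YPAH5x and 63.5 and 70.3 in *GS115*-YPA. The *X33*-YPA and *GS115*-YPAH5x libraries lay together above both *GS115*-YPA libraries. It rose by 0.57 in *X33*-YPA (adjusted p = 0.00293) and 0.56 in *GS115*-YPAH5x (adjusted p = 0.00389) on the log2 scale, with an SE of 0.13 each. The receptor *TOM20* (BQ9382_C3-3315), which binds presequences, had 39.9 and 56.7 CPM in *X33*-YPA, 25.9 and 28.4 in *GS115*-YPAH5x and 27.1 and 22.2 in *GS115*-YPA. The rise in *X33*-YPA passed (log2 change 0.97, SE 0.18, adjusted p = 0.00109), and its value in *GS115*-YPAH5x was 0.14 (SE 0.18, adjusted p = 0.543). *TOM22* (BQ9382_C2-2070), the central receptor, had 72.9 and 82.1 CPM in *X33*-YPA, 56.5 and 58.9 in *GS115*-YPAH5x and 56.9 and 54.4 in *GS115*-YPA. It rose in *X33*-YPA (0.48, SE 0.13, adjusted p = 0.00845), a call lost without library D (0.35, adjusted p = 0.10), and its value in *GS115*-YPAH5x was 0.05 (adjusted p = 0.747). *TOM70* (BQ9382_C2-2140), the receptor for carrier precursors, held the most reads of the complex, with 212 and 179 CPM in *X33*-YPA, 201 and 208 in *GS115*-YPAH5x and 174 and 168 in *GS115*-YPA, and passed in neither comparison (0.20 and 0.26, adjusted p = 0.236 and 0.131).

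Of the 9 genes of the TIM23 complex and its motor, *X33*-YPA had 4 higher (44.4%) and 2 lower (22.2%). Of all genes, 33.4% were higher and 32.8% lower there. *GS115*-YPAH5x had 2 higher (22.2%) and 3 lower (33.3%), against 30.7% and 29.1% of all genes. In *X33*-YPA the highest and lowest values of this role belonged to partners in the motor, *TIM14* and *TIM16*, and in *GS115*-YPAH5x to *TIM21* and *TIM16*. *TIM14* (BQ9382_C2-2360), the J-protein that stimulates the ATPase of the motor Hsp70, had 31.0 and 33.9 CPM in *X33*-YPA, 17.3 and 19.0 in *GS115*-YPAH5x and 11.8 and 13.0 in *GS115*-YPA, with the groups apart in that order. It rose in *X33*-YPA (log2 change 1.38, SE 0.14, adjusted p = 2.47e-05), the largest rise among the import genes, and in *GS115*-YPAH5x (0.55, SE 0.14, adjusted p = 0.0089), there not without library F (0.46, adjusted p = 0.0948). *TIM16* (BQ9382_C1-0165), the J-like protein that pairs with it, had 15.8 and 21.8 CPM in *X33*-YPA, 21.7 and 20 in *GS115*-YPAH5x and 41.1 and 35.1 in *GS115*-YPA. It fell in *X33*-YPA (-1.02, SE 0.18, adjusted p = 0.000623) and in *GS115*-YPAH5x (-0.87, SE 0.18, adjusted p = 0.00199), and each of these falls passed in the 14 alternatives.

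*TIM21* (BQ9382_C3-4805), which in *S. cerevisiae* contacts the TOM complex, had 53.4 and 49.6 CPM in *X33*-YPA, 46.6 and 49.3 in *GS115*-YPAH5x and 32.5 and 23.7 in *GS115*-YPA. It rose in *X33*-YPA (log2 change 0.87, SE 0.16, adjusted p = 0.000995) and in *GS115*-YPAH5x (0.77, SE 0.16, adjusted p = 0.00265). *PAM17* (BQ9382_C2-0710), a motor subunit with the most reads of this role, had 91.0 and 105 CPM in *X33*-YPA, 76.5 and 77.6 in *GS115*-YPAH5x and 64.3 and 62.7 in *GS115*-YPA. The groups did not overlap, and it rose in *X33*-YPA (0.63, SE 0.13, adjusted p = 0.00206), with 0.28 (adjusted p = 0.094) in *GS115*-YPAH5x.

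The channel genes themselves went down or did not pass. *TIM23* (BQ9382_C1-5410) fell in *X33*-YPA (36.4 and 39.6 CPM, against 52.9 and 49.5 CPM in *GS115*-YPA; log2 fold change -0.43, adjusted p = 0.013), a call lost without library C (-0.41, adjusted p = 0.0623). In *GS115*-YPAH5x its value was -0.29 (adjusted p = 0.0685), which passed without library B (-0.34, adjusted p = 0.0408) and with upper-quartile scaling (-0.43, adjusted p = 0.0172). *TIM17* (BQ9382_C2-0565), the other channel subunit, and *TIM50* (BQ9382_C2-0455), the receptor of the complex, fell in *GS115*-YPAH5x (-0.51 and -0.39, adjusted p = 0.0306 and 0.024). The *TIM17* call was lost without library A, E or F (-0.31, -0.43 and -0.60, adjusted p between 0.0578 and 0.17) and the *TIM50* call without library E or F (-0.43 and -0.37, adjusted p = 0.101 and 0.163). *TIM44* (BQ9382_C3-3550), which tethers Hsp70 to the channel, passed narrowly in *X33*-YPA (0.36, adjusted p = 0.0468), and this call was lost in 12 of 14 alternatives, among them the omission of any of libraries A to F (0.31, 0.37, 0.19, 0.44, 0.36 and 0.34, adjusted p between 0.053 and 0.375). The last gene, described as a motor constituent (BQ9382_C2-3200), was at 0.486 to 1.72 CPM and passed in neither comparison, but passed in *GS115*-YPAH5x without library F (-1.61, adjusted p = 0.0388).

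Of the 8 genes of the route for carriers and other multispanning proteins, 4 fell and none rose in *GS115*-YPAH5x (1 of 2 for TIM22 and 3 of 6 for the small TIMs), where 29.1% of all genes fell and 30.7% rose. The other 4 did not pass there, and 2 of the 4 calls were lost when single libraries were left out. In *X33*-YPA 2 of these genes rose and 2 fell, where 33.4% of all genes rose and 32.8% fell. *TIM54* (BQ9382_C1-1710), a subunit of the TIM22 complex, had 18.8 and 19.5 CPM in *X33*-YPA, 14.1 and 13.8 in *GS115*-YPAH5x and 24.7 and 26.0 in *GS115*-YPA. It fell in *GS115*-YPAH5x (log2 fold change -0.86, SE 0.14, adjusted p = 0.000459) and in *X33*-YPA (-0.40, SE 0.14, adjusted p = 0.0235), there not without library C, D or E (-0.42, -0.47 and -0.40, adjusted p between 0.051 and 0.0753). *TIM22* (BQ9382_C1-6235), the channel subunit, had 8.09 and 5.69 CPM in *X33*-YPA, 4.12 and 4.0 in *GS115*-YPAH5x and 5.37 and 6.30 in *GS115*-YPA. Neither value passed (0.24 in *X33*-YPA and -0.52 in *GS115*-YPAH5x, adjusted p = 0.373 and 0.073), but the second passed without library A, C or D (-0.67, -0.56 and -0.56, adjusted p = 0.049, 0.0475 and 0.0443) and with upper-quartile scaling (-0.66, adjusted p = 0.0315).

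The small TIMs chaperone hydrophobic precursors through the intermembrane space, *TIM9* and *TIM10* as a hexamer. *TIM10* (BQ9382_C2-1675) had 19.2 and 18.8 CPM in *X33*-YPA, 10.1 and 10.7 in *GS115*-YPAH5x and 24.6 and 19.6 in *GS115*-YPA. Both *GS115*-YPAH5x libraries were near 10 CPM and below the other 4. It fell in *GS115*-YPAH5x (log2 fold change -1.09, SE 0.16, adjusted p = 0.000289), the largest fall among the import genes there, and its value in *X33*-YPA was -0.22 (adjusted p = 0.246). *TIM9* (BQ9382_C3-4365), with the most reads of the small TIMs, had 30.9 and 32.8 CPM in *X33*-YPA, 23.8 and 19.1 in *GS115*-YPAH5x and 30.4 and 27 in *GS115*-YPA. It fell in *GS115*-YPAH5x (-0.42, SE 0.15, adjusted p = 0.0366), a call lost without library A (-0.37, adjusted p = 0.0791) or F (-0.29, adjusted p = 0.269). The TIM13-like gene (BQ9382_C4-2145) had 6.94 and 6.79 CPM in *X33*-YPA, 2.63 and 3.57 in *GS115*-YPAH5x and 4.79 and 7.40 in *GS115*-YPA. It fell in *GS115*-YPAH5x (-0.98, SE 0.26, adjusted p = 0.0092), a call lost without library B (-0.63, adjusted p = 0.0552) or E (-0.78, adjusted p = 0.0782).

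*TIM8* (BQ9382_C3-0500), the partner of TIM13, had 10.9 and 12.2 CPM in *X33*-YPA, 6.73 and 5.52 in *GS115*-YPAH5x and 6.54 and 7.79 in *GS115*-YPA, and both *X33*-YPA libraries stood above all others. It rose in *X33*-YPA (log2 change 0.69, SE 0.19, adjusted p = 0.00887), but not without library D (0.56, adjusted p = 0.0773). *TIM12* (BQ9382_C1-1965), which docks the small TIMs on the TIM22 complex, had 5.06 and 8.40 CPM in *X33*-YPA, 5.50 and 4.47 in *GS115*-YPAH5x and 3.60 and 4.40 in *GS115*-YPA. Its rise in *X33*-YPA (0.76, SE 0.27, adjusted p = 0.0311) was a call lost without library A (0.58, adjusted p = 0.137) or D (0.30, adjusted p = 0.395). A second gene described as *TIM10* (BQ9382_C2-1685) was at 1.18 and 0.729 CPM in *X33*-YPA, 0.895 and 1.43 in *GS115*-YPAH5x and 1.75 and 1.88 in *GS115*-YPA. It fell in *X33*-YPA (-0.94, SE 0.36, adjusted p = 0.0422), but not without library A, B, D, E or F (-1.04, -0.89, -0.67, -0.94 and -0.97, adjusted p between 0.0505 and 0.214).

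The direct comparison set *X33*-YPA, where histidine is made in the cell, against *GS115*-YPAH5x, where it is added to the medium. These groups differ in both strain and medium, so the effects of strain and medium cannot be told apart in this comparison. In it 20 of the 48 genes were higher in *X33*-YPA (41.7%) and 5 lower (10.4%), against 19.8% and 21.6% of all genes tested, and the median log2 difference was 0.34, against 0.03 over all genes. Among the 21 import genes 12 were higher (57.1%) and none was lower, with a median of 0.46. No import gene was lower at an unadjusted p under 0.05 either, and DESeq2 gave the same counts, 12 and 0. Among the 27 carriers 8 were higher and 5 lower, with a median of 0.22. The counts of 20 and 12 higher genes became smaller when library C, D, E or F was left out. Such fits leave a lone library in a group, so loss of power and dependence on single libraries cannot be told apart. The log2 difference of *CTP1* was 0.46, 0.44, 0.47 and 0.43 in these fits, against 0.45 with all libraries. That of *TOM20* went from 0.83 to 0.56 without library D. No import gene was called lower in any alternative.

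**Figure D3:**
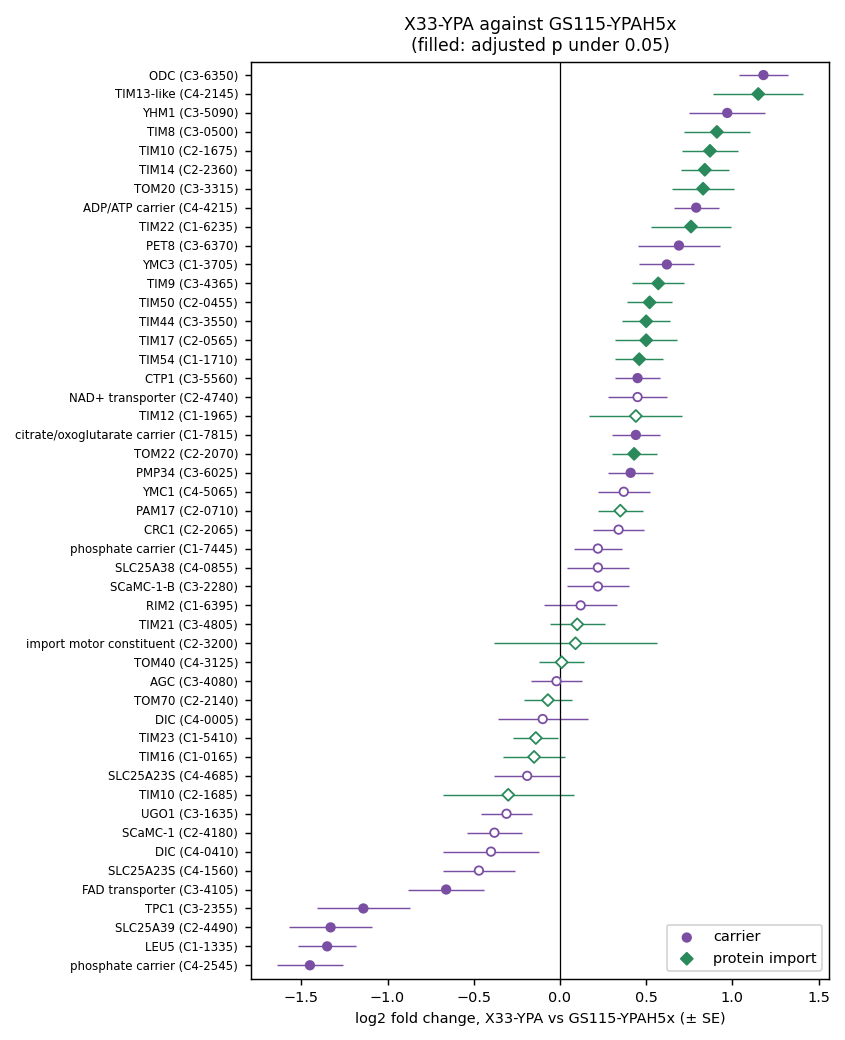
Log2 fold change of each of the 48 genes in *X33*-YPA against *GS115*-YPAH5x (x axis, bars are the SE, 2 libraries a group), ordered by value, with carriers as circles and import genes as diamonds, filled where the adjusted p was under 0.05. All filled diamonds lie right of 0, while the 5 filled symbols on the left are carriers.

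The import genes with the largest differences were those of the small TIMs. The TIM13-like gene was 1.15 higher on the log2 scale in *X33*-YPA than in *GS115*-YPAH5x (SE 0.26, adjusted p = 0.0076), *TIM8* 0.91 higher (SE 0.19, adjusted p = 0.00523) and *TIM10* (BQ9382_C2-1675) 0.87 higher (SE 0.16, adjusted p = 0.00293). The first was lost without library E (0.94, adjusted p = 0.0594) and the second without library F (0.78, adjusted p = 0.065). *TIM14* was 0.84 higher (SE 0.14, adjusted p = 0.00203) and *TOM20* 0.83 higher (SE 0.18, adjusted p = 0.00663), a call lost without library D (0.56, adjusted p = 0.0653). The other 7 (*TIM22*, *TIM9*, *TIM50*, *TIM44*, *TIM17*, *TIM54* and *TOM22*) were higher by 0.43 to 0.76, and each of them was lost without at least 2 of libraries C, D, E and F (adjusted p between 0.0627 and 0.219 where lost). Of the 12, *TIM10* and *TIM14* passed in every alternative. *TOM40*, *TIM21* and *TIM16*, which had moved alike in both comparisons above, differed by 0.01 (SE 0.13), 0.10 (SE 0.16) and -0.15 (SE 0.18) and did not pass.

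Among the carriers, *ODC* was 1.18 higher in *X33*-YPA than in *GS115*-YPAH5x on the log2 scale (SE 0.14, adjusted p = 0.000396), *YHM1* 0.97 higher (SE 0.22, adjusted p = 0.00762) and the ADP/ATP carrier 0.79 higher (SE 0.13, adjusted p = 0.00194). The *YHM1* call was lost without library D (0.65, adjusted p = 0.0715). The 5 lower genes were the phosphate carrier BQ9382_C4-2545 (-1.45, SE 0.19, adjusted p = 0.000694), *LEU5* (-1.35, SE 0.17, adjusted p = 0.000623), SLC25A39 (-1.33, SE 0.24, adjusted p = 0.00274), *TPC1* (-1.14, SE 0.27, adjusted p = 0.00988) and the FAD transporter. For the FAD transporter (BQ9382_C3-4105) the levels were 5.37 and 4.01 CPM in *X33*-YPA, 7.90 and 6.87 in *GS115*-YPAH5x and 4.64 and 5.66 in *GS115*-YPA, and its difference of -0.66 (SE 0.22, adjusted p = 0.0385) was lost without library D, E or F (-0.46, -0.55 and -0.76, adjusted p = 0.227, 0.207 and 0.0978). That of *TPC1* was lost without library D (-0.79, adjusted p = 0.0732) or F (-0.99, adjusted p = 0.0694). The other 5 higher carriers (*PET8*, *YMC3*, *CTP1*, the citrate/oxoglutarate carrier and PMP34) differed by 0.41 to 0.69, and each was lost without at least 2 of libraries C, D, E and F (adjusted p between 0.0723 and 0.247 where lost).

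Levels were also summed by role. The 4 TOM genes summed to 423 and 419 CPM in *X33*-YPA, 383 and 394 in *GS115*-YPAH5x and 321 and 315 in *GS115*-YPA. The groups lay apart, but different genes made the steps. *TOM40* and *TOM70* had means of 99.6 and 196 CPM in *X33*-YPA, 99.0 and 205 in *GS115*-YPAH5x and 66.9 and 171 in *GS115*-YPA. Those of *TOM20* and *TOM22* were 48.3 and 77.5 CPM in *X33*-YPA, 27.1 and 57.7 in *GS115*-YPAH5x and 24.7 and 55.6 in *GS115*-YPA. The 6 small TIMs summed to 74.1 and 79.7 CPM in *X33*-YPA, 49.6 and 44.8 in *GS115*-YPAH5x and 71.7 and 68.0 in *GS115*-YPA, so that *GS115*-YPAH5x stood below both groups in YPA. The 2 TIM22 genes summed to 26.9 and 25.2 CPM, 18.2 and 17.8 CPM, and 30.1 and 32.3 CPM in the same order, again lowest in *GS115*-YPAH5x. The 8 cofactor and nucleotide carriers summed to 143 and 133 CPM in *X33*-YPA, 189 and 220 in *GS115*-YPAH5x and 162 and 172 in *GS115*-YPA. This order was that of *LEU5*, which gave 120 and 153 CPM of the sums in *GS115*-YPAH5x. Without it the other 7 summed to 84.1 and 84.6 CPM in *X33*-YPA, 68.8 and 66.3 in *GS115*-YPAH5x and 81.3 and 76.1 in *GS115*-YPA, with *GS115*-YPAH5x lowest.

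**Figure D4:**
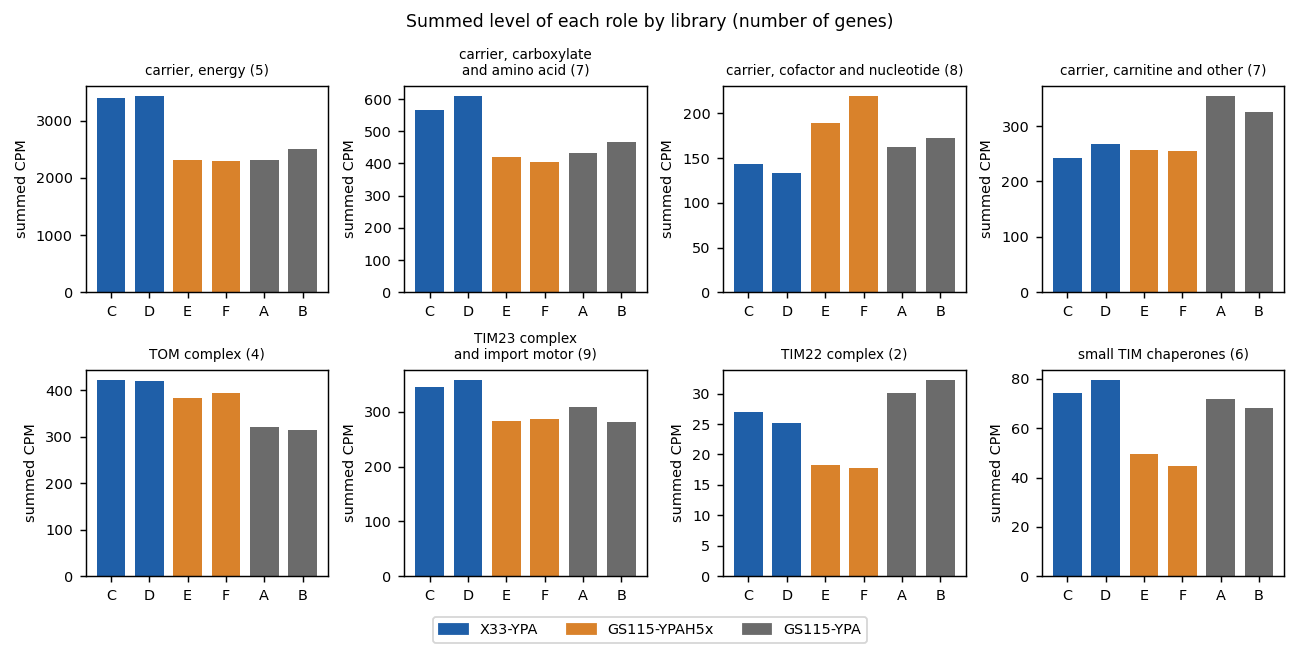
Summed CPM (y axis, from 0) of the genes of each role in each library, with *X33*-YPA (C, D) left, *GS115*-YPAH5x (E, F) in the middle and *GS115*-YPA (A, B) right; the number of genes is in each title. The small TIM and TIM22 sums are lowest in the *GS115*-YPAH5x libraries, at 44.8 to 49.6 CPM and 17.8 to 18.2 CPM.

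Other genes of the same pathways, taken by a separate search, were set beside these. Of 20 such genes (sorting and assembly, oxidative folding, peptidases, motor chaperones, *OXA1*, prohibitins, porin and the pyruvate carrier), *X33*-YPA had 5 higher (25%) and 11 lower (55%), against 33.4% and 32.8% of all genes. In *GS115*-YPAH5x 3 were higher (15%) and 8 lower (40%), against 30.7% and 29.1%. Porin (BQ9382_C2-2235), the outer membrane pore through which metabolites reach the carriers, rose in both (log2 fold change 1.88 and 1.48, adjusted p = 3.04e-06 and 1.47e-05), as did both genes annotated as *SAM50* (0.70 and 0.67 for BQ9382_C1-7630, 0.92 and 1.74 for BQ9382_C2-1190), the channel that inserts barrel proteins such as porin and Tom40. *MIA40* (BQ9382_C2-3315), which traps the small TIMs in the intermembrane space by forming their disulfides, fell in both (-2.30 and -1.64, adjusted p = 1.79e-06 and 1.49e-05), together with its oxidase *ERV1* (BQ9382_C2-6215, -1.19 in each, adjusted p = 0.000356 and 0.000478). The GrpE gene (BQ9382_C1-5540), the nucleotide exchange factor of the motor Hsp70, fell by 1.6 and 1.59 on the log2 scale, while the Hsp70 itself, *SSC1* (BQ9382_C3-4465), fell in *X33*-YPA (-0.80, adjusted p = 0.000689) and had 0.09 (adjusted p = 0.593) in *GS115*-YPAH5x. The pyruvate carrier subunits differed in *X33*-YPA, where *MPC1* fell (-0.62, adjusted p = 0.00324) and *MPC2* rose (0.93, adjusted p = 0.0005). In *GS115*-YPAH5x *MPC1* fell as well (-0.79, adjusted p = 0.000978), and *MPC2* had 0.21 (adjusted p = 0.266). Between *X33*-YPA and *GS115*-YPAH5x, 4 of the 20 were higher in *X33*-YPA (20%) and 5 lower (25%), near the 19.8% and 21.6% of all genes.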

How the data were processed

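The authors deposited 1 table of unnormalized read counts, with genes as rows and the 6 libraries as columns. The submitters' processing notes list DESeq2, featureCounts 1.6.4, Bowtie2, fastp 0.19.6 and bcl2fastq 2.19.0.316, with no order. The labels describe rRNA depletion with a kit for bacteria. The genome build is not given in the sources used here, nor is the strand setting. Close copies and overlapping genes may therefore share reads.

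Differential expression was computed with edgeR 4.0.16 under R 4.3.3 (TMM scaling, filter by expression, which kept 5426 of 5427 genes, and the legacy quasi-likelihood test on all 6 libraries in 1 fit, with 3 residual degrees of freedom and a common biological coefficient of variation of 0.132). The Benjamini-Hochberg adjustment was made over all genes tested. The fit was also run on counts simulated from its own means and dispersions, which checks the code and not its assumptions on these data. CPM used TMM-scaled library sizes.

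The members and lists were chosen with earlier results of these data known. Per-library values are given for genes past the fold threshold, the largest and smallest changes and the most counted gene of each role, genes called in different directions, and the 5 largest differences each way between *X33*-YPA and *GS115*-YPAH5x, with further genes added for context. From 35 matches of the pathway search, 15 were dropped as false (nucleoporins, an aquaporin and an unrelated protein) after their descriptions were read. Alternatives were DESeq2 1.42.0, RLE and upper-quartile scaling, 2 other filters, the quasi-likelihood test without legacy, only the 4 libraries compared, leaving out the 10 most abundant genes, and leaving out each library.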

Additional observations from a re-analysis of the deposited data

Results flagged for a closer look

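*LEU5* (BQ9382_C1-1335) was singled out because, in the edgeR fit to all 6 libraries, it was called lower in *X33*-YPA and higher in *GS115*-YPAH5x. Both calls were against the same *GS115*-YPA libraries. The direct difference between *X33*-YPA and *GS115*-YPAH5x was -1.35 on the log2 scale (SE 0.17), lower in 2 of 2 *X33*-YPA libraries. It follows from the calls by which the gene was chosen and is given as a description. Groups of 2 libraries are too small to test single libraries as outliers.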

How the results depend on the processing

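No call of a member changed direction in any of 14 alternatives. Signs changed in 46 cases over 28 of 144 member values, none of which passed in either fit. Calls held throughout for 16 of 29 members in *X33*-YPA, 11 of 23 in *GS115*-YPAH5x and 7 of 25 in the direct comparison. With libraries left out in turn (a lone library is then assumed to vary like the other groups), members higher and lower numbered 11 to 15 and 9 to 11 in *X33*-YPA, 4 to 11 and 8 to 16 in *GS115*-YPAH5x, and 7 to 24 and 3 to 8 in the direct comparison. Import genes higher and lower numbered 5 to 8 and 2 to 3 in *X33*-YPA, 2 to 3 and 4 to 8 in *GS115*-YPAH5x, and 4 to 13 and 0 to 0 in the direct comparison. Members past the fold threshold in *X33*-YPA numbered 0 to 1. This count was 0 with at least 10 CPM in at least 2 libraries, which removed *TPC1*. In the direct comparison 3 members were lower with that filter and 8 with only the 4 libraries compared. Upper-quartile scaling moved the median of all genes to -0.134 in *GS115*-YPAH5x and 0.153 in the direct comparison, where 17 members were then lower and 24 higher. No paired analysis was possible because the groups share no replicate labels. Members near 1 CPM carry wide errors, with an SE of 0.36 to 0.47.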
